A study of Mus musculus with 4 samples.

Results

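The immunoglobulin heavy chain locus (Igh) and the light chain loci kappa (Igk) and lambda (Igl) were described through the regions of convergent transcription that lie in them, in activated mouse B cells that were either unsynchronized or sorted in early G1. A region of convergent transcription is a stretch of DNA over which nascent RNA was recorded from both strands. Members were found by position on the mouse build mm9, since the deposited lists name no genes. The windows were chr12:114400000-117300000 for Igh, chr6:67500000-70750000 for Igk and chr16:19000000-19280000 for Igl, and any region sharing at least 1 base with a window was taken. Of 47975 deposited regions, 169 lay in the windows, of which 44 and 53 came from the unsynchronized libraries, replicate 1 first, and 39 and 33 from early G1. Merged over the libraries where they shared at least 1 base, they gave 73 of 20175 regions: 31 in Igh, 19 in Igk and 23 in Igl. A merged region is called in a library if that library has a region there, and its signal is the length-weighted mean of that library's regions. Because a window holds every region by position, transcription of other genes inside it was not separated.

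Nascent RNA was measured by global run-on sequencing (GRO-seq), in which polymerases already engaged on DNA extend their transcripts in isolated nuclei. All 4 libraries were made from splenic B cells of Fucci-EGFP+ C57BL/6 mice, which carry a fluorescent cell cycle reporter, stimulated in vitro through LPS, IL4 and Rp105. The 2 unsynchronized libraries are titled total cell control. For the 2 early G1 libraries, 100 ng/ml nocodazole, which arrests cells in mitosis, was given at 42 h for 6 h, EGFP+ cells were sorted and cultured for another 1.5 h, and early G1 cells were sorted from them. The same protocol text stands with all 4 libraries, while the deposited names of the unsynchronized ones call them untreated. The deposited name of early G1 replicate 1 gives 1 h in place of 1.5 h. Cell cycle phase, nocodazole, the sorts and the return to culture cannot be told apart. Whether the 2 replicates of a group are separate mice or separate cultures is not stated, and p-values then reflect only how much these libraries differ, which may be technical. The B cell identity of the libraries was not checked against marker genes, since no gene names accompany the regions.

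Antibodies are assembled from the heavy chain and 1 of the 2 kinds of light chain. In each locus variable (V), joining (J) and, for the heavy chain, diversity (D) segments are recombined during B cell development, and the promoter of the joined V segment then drives transcription through the constant gene. In activated B cells the constant genes of Igh are in addition transcribed from their own germline promoters, each across a repetitive switch region, and the enzyme AID deaminates such transcribed DNA during class switching. LPS with IL4 is a textbook stimulus for switching to Ighg1 and Ighe. In RefSeq's gene table for GRCm38, used here for gene order alone, Igha, Ighe, Ighg2c, Ighg2b, Ighg1, Ighg3, Ighd and Ighm follow one another with rising coordinate, before the J, D and V segments. In Igk the V segments come first, then the J segments and Igkc. In Igl, Iglc1 and Iglc3 with their J segments lie on one side of Iglv1, and Iglc4 and Iglc2 lie between Iglv1 and the segments Iglv3 and Iglv2. No mm9 region was assigned to one of these genes beyond what the windows give.

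The signal of a region is the authors' geometric mean, and it behaves as the geometric mean of the reads on both strands, divided by region length and by a constant of the library. It therefore falls if either strand falls. "Reads" means this recovered geometric mean, and paired values give replicate 1 before replicate 2. If the constant scales as RPKM does, library sizes were 14700000 and 13500000 reads for unsynchronized cells and 8170000 and 9520000 for early G1, so depth differed with the group. These sizes are inferred, and the part of depth in the results was not tested. The 18 members called in all 4 libraries held 44 to 21222 reads per library, with a median of 588.5. Counting alone then gives an error of at least 0.485% to 10.7% of the signal, a bound that covers counting error only. Of all 4972 regions called in all 4 libraries, 78% had a higher signal in early G1, with a median log2 change of 0.41, and the members are read beside this shift.

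**Figure D1:**
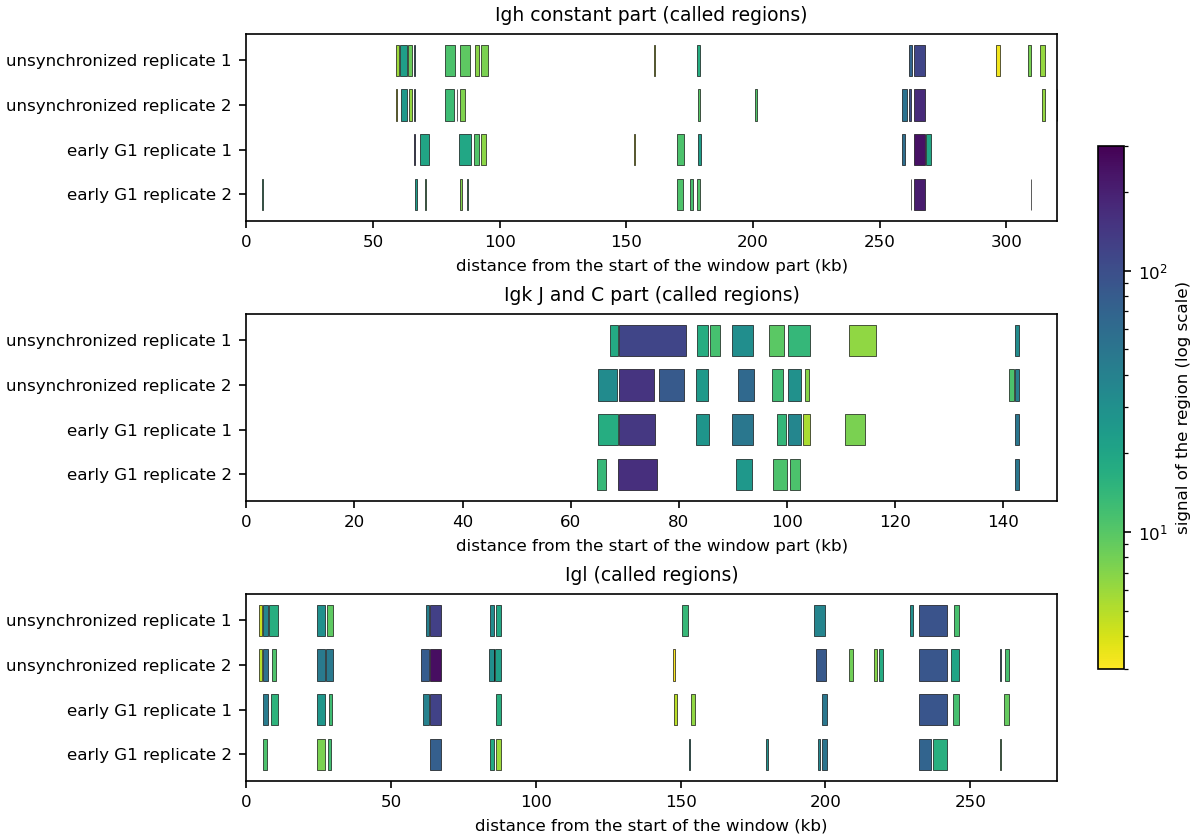
Called regions in the constant part of Igh (320 kb), the J and C part of Igk (150 kb) and the Igl window (280 kb), by library. The x axis is the distance in kb from the start of each stretch, each box is a called region to scale, and its colour is the signal on a log scale. The strongest Igh region stands at the same place in all 4 libraries. The strongest Igk region is 12372 bp long in unsynchronized replicate 1, 6498 bp in unsynchronized replicate 2, and 6763 and 7193 bp in early G1 cells. In unsynchronized replicate 2 a separate region of 4714 bp follows it.

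In the heavy chain locus, calls were concentrated in the constant part, the first 320 kb of the window, which holds the constant genes and switch regions. There, 9.03% and 6.08% of the bases were called in unsynchronized cells and 7.28% and 3.68% in early G1 cells. The remaining 2580 kb, with the V segments, had 0.140% and 0.206% of bases called in unsynchronized cells, 0.141% in early G1 replicate 1 and no region at all in early G1 replicate 2. Most of these bases lay in 1 region at the low end of that part, chr12:114720367-114724040. It was called over 3611 and 3294 bp in unsynchronized cells and 3505 bp in early G1 replicate 1, at 17.0, 19.4 and 22.8. All calls of the remaining part covered 3.61, 5.32 and 3.65 kb in the same order, so they were not spread across the V segments. Of the 31 Igh regions, 26 touched the constant part and 6 the remaining part, with 1 across the boundary. In all 4 libraries 3 Igh regions were called.

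The strongest region of all windows by its mean over the 4 libraries was chr12:114663661-114667817, in the constant part. Its signal was 116 and 173 in unsynchronized cells, on 6958 and 9716 reads. In the early G1 libraries it was 244 and 211, on 8107 and 8120 reads. Both early G1 values lay above both unsynchronized values, with means of 227 ± 23.5 against 145 ± 40.5 (SD, n = 2). The log2 change was 0.67 (SE 0.42) on the log2(signal + 1) scale and did not pass the test over all shared regions (limma adjusted p = 0.46). Beyond the median shift of all shared regions the change was 0.26, and 43.9% of all shared regions had both early G1 libraries above both unsynchronized libraries. This region ranked 101 and 96 by signal among the regions of the unsynchronized libraries and 79 and 68 among those of early G1. It held 54.8% and 61.5% of the summed signal of the Igh window in unsynchronized cells, and 67.9% and 90.4% in early G1 cells.

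Its edges were stable. The called start varied by 22 bp and the end by 88 bp over the 4 libraries, and the longest call was 1.03 times the shortest. Among the 4003 shared regions with exactly 1 call per library, the median range was 182 bp for both starts and ends, and the median ratio of lengths was 1.67. Those at lower coordinates beside it were less stable. At chr12:114661457-114662621 the signal was 69.6 and 103 in unsynchronized cells, on 1191 and 1484 reads. Early G1 replicate 2 had a call of only 172 bp there, with 22 reads and a signal of 13.6, and early G1 replicate 1 had none. A further region at chr12:114658774-114660651 was called in 1 library of each group, with 52.6 in unsynchronized replicate 2 and 57.4 in early G1 replicate 1. On the other side, chr12:114668433-114670149 was called in early G1 replicate 1 alone, at 19.3.

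The 2 other shared Igh regions were weak. At chr12:114484108-114488521 the signal was 9.47 and 7.29 in unsynchronized cells and 19.3 and 9.23 in early G1 cells, so the groups overlapped. At chr12:114577762-114579402 it was 17.0 and 10.1 against 23.5 and 10.6, which also overlapped. Their log2 changes of 0.63 (SE 0.53) and 0.25 (SE 0.50) did not pass (limma adjusted p = 0.57 and 0.82). The latter was at -0.18 when each library was divided by its median, while the other 2 Igh regions stayed at 0.20 and 0.21.

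Several Igh regions had calls in 1 group only. Near the low end of the window, on the side of Igha in the gene order, 3 neighbouring regions were called in each unsynchronized library and in no early G1 library. The strongest of them, chr12:114460767-114463430, had 844 and 765 reads and a signal of 22.6 and 25.7. The neighbours chr12:114458966-114460377 and chr12:114463918-114465408 had signals of 5.94 and 3.93, and of 8.67 and 6.38. At chr12:114458966-114460377 the calls of the unsynchronized libraries shared only the bases from 114459221 to 114459272. Just beyond these 3 regions, chr12:114466243-114466510 was called in unsynchronized cells at 54.4 and 83.2 and in early G1 replicate 1 at 130. Early G1 replicate 2 instead had a call at chr12:114466588-114467211 at 23.6. The next region, chr12:114468698-114472007, was called in both early G1 libraries, at 19.8 over 3310 bp and at 10.6 over 371 bp, and in neither unsynchronized library. Along this stretch some bases were called in 1 group alone, and those of chr12:114466243-114466510 in both groups.

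Another unsynchronized-only region was chr12:114478253-114482521, with 4269 and 3560 bp, 695 and 614 reads and a signal of 11.1 and 12.8. At the same summed signal it would have held 379 and 442 reads in early G1 cells, and chr12:114460767-114463430 would have held 466 and 544. These numbers exceed the median early G1 region of 141 and 166 reads. That median is not a limit for calling, since early G1 calls in the windows held as few as 6 and 12 reads. The fifth was chr12:114713241-114715206 at 6.26 and 6.32. It would have held 78 and 91 reads, chr12:114463918-114465408 80 and 93, and chr12:114458966-114460377 33 and 38, all below that median. In the early G1 libraries alone, chr12:114569943-114572751 was called over 2727 and 2369 bp, at 11.0 and 10.9 with 245 reads in each. The early G1 replicates were almost equal there. At the same summed signal it would have held 411 and 376 reads in unsynchronized cells. A missing call does not show that a strand was silent, since the calling rule is unknown here.

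In the kappa locus, calls lay mostly in the last 150 kb of the window, which holds the J segments and Igkc. There 22.8% and 18.0% of the bases were called in unsynchronized cells and 17.4% and 11.5% in early G1. The remaining 3100 kb, with the V segments, had 0.107%, 0.127%, 0.0498% and 0.0388% of its bases called in the same order. Igk had 8 regions called in all 4 libraries, of which 6 lay in the J and C part. None passed the test (lowest limma adjusted p 0.496). Of the 8, 5 were above 0 and 3 below, where 78% of all shared regions were above.

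The main Igk region was chr6:70668834-70681337, where the rule for the window places the J and C segments. In the unsynchronized libraries its signal was 117 and 122, and in early G1 cells 143 and 161. Both early G1 values lay above both unsynchronized values, at 152 ± 12.5 against 119 ± 3.79 (SD, n = 2). The log2 change was 0.35 with an SE of 0.41 (limma adjusted p = 0.69), or -0.07 beyond the median shift. The called length behaved otherwise. It was 12372 and 11212 bp in unsynchronized cells, in replicate 2 as 2 regions, but 6763 and 7193 bp in early G1 cells. Reads were 21222 and 18422 against 7915 and 11027. For signal times length the log2 change was -0.41 (limma adjusted p = 0.69), and divided by each library's median signal it was -0.11.

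The difference in length came from a single stretch. Over the 4714 bp at chr6:70676340-70681053 both unsynchronized libraries had a call and neither early G1 library did. In unsynchronized replicate 2 this stretch was a region of its own, with a signal of 82.6 and 5249 reads, and it ranked 453 of 11961 regions by signal. In unsynchronized replicate 1 it was the far side of the single long region. The near side was called in all 4 libraries. Where it was a region of its own, it ended at 70675460 in unsynchronized replicate 2 and at 70675679 and 70676026 in early G1 cells. Its signal was 150 in unsynchronized replicate 2, beside 143 and 161 in early G1. Because the authors' lists hold no signal outside called regions, the level over the far side in early G1 was not measured here.

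At lower coordinates than the main region, chr6:70664897-70668808 had signals of 18.3 and 33.3 for unsynchronized cells against 17.4 and 13.8 in early G1 cells. Both early G1 values were below both unsynchronized values, and the log2 change was -0.64 with an SE of 0.45 (limma adjusted p = 0.50). This direction turned to 0.16 when regions were merged within 1 kb, which joins it to the main region. At higher coordinates, chr6:70689801-70693868 had 31.4 and 62.9 against 48.3 and 25.9, and chr6:70700219-70704347 had 13.9 and 24.3 against 25.3 and 11.0. In both, the early G1 libraries lay on either side of unsynchronized replicate 1, and the groups overlapped. At chr6:70696758-70700108 the signals were 9.83 and 12.6 against 14.2 and 11.1, which overlapped too. Nearer the main region, chr6:70683115-70685531 was called in all but early G1 replicate 2, at 17.4, 25.1 and 27.3. The third longest region of all windows, chr6:70710852-70716429, was weak and called in replicate 1 of each group only, at 6.48 in unsynchronized cells and 7.60 in early G1.

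The region nearest the end of the window, chr6:70742249-70742947, had the most stable edges among the Igk regions with exactly 1 call per library. Its signal was 32.4 and 41.9 in unsynchronized cells and 49.4 and 48.1 in early G1 cells. Its log2 change of 0.39 (SE 0.41, limma adjusted p = 0.64) was -0.02 beyond the median shift of all shared regions. Its called start varied by 42 bp and its end by 7 bp, and its lengths by 1.07 times. It lay well past the main region, where the rule for the window places the J and C segments. Whether it belongs to another gene in the window was not checked.

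In the V part of Igk, 9 regions were called in any library and 2 in all 4. At chr6:69450166-69450642 the signal was 15.7 and 31.6 for unsynchronized cells against 22.1 and 44.9 in early G1 cells. At chr6:68204516-68206367 it was 5.31 and 13.0 against 10.4 and 11.5. The groups overlapped at both. Of the other 7, chr6:68202274-68202976 was called in both unsynchronized libraries at 14.9 and 32.2, on 154 and 282 reads, and chr6:69527148-69527789 at 5.47 and 11.8, on 13 and 83 reads. Neither had a call in early G1. At chr6:69527148-69527789 the calls of the unsynchronized libraries shared only the bases from 69527267 to 69527308. The remaining 5 were each called in 1 library with at most 77 reads.

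In the lambda locus, all 7 regions called in all 4 libraries had lower mean log2 signals in early G1. The log2 changes ran from -1.31 to -0.26 with a median of -0.89, beside a median of 0.41 over all shared regions, of which 22% were below 0. None of the 7 passed the test, the lowest limma adjusted p being 0.29, and 1 had an unadjusted p under 0.05. Ranked among all 4972 shared regions, their changes lay between the 0.563th and the 11.3th percentile. In 3 of the 7 both early G1 libraries were below both unsynchronized libraries, a pattern that 4.67% of all shared regions had, and in 0 of the 7 both were above. The same 7 were below 0 after division by the library median, at a median of -1.35, and as signal times length, at a median of -1.18.

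**Figure D2:**
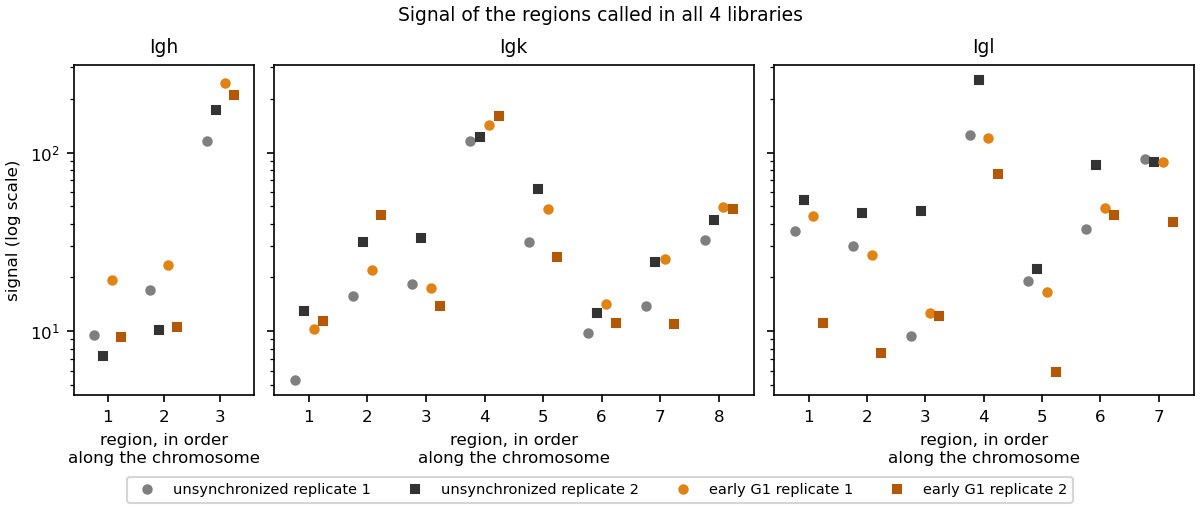
Signal (y axis, log scale) of the 18 regions called in all 4 libraries, in order along each chromosome; points are single libraries. In Igl the lowest point of 5 of the 7 regions is early G1 replicate 2, and at chr16:19027477-19030036 and chr16:19196112-19200381 it is unsynchronized replicate 1.

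The size of the Igl difference depended on early G1 replicate 2. Its signal was the lowest of the 4 libraries in 5 of the 7 regions, and it was below early G1 replicate 1 in all 7. The median of the 7 was -0.30 without it. Leaving out the other early G1 library gave -1.22. All 7 stayed below 0 in both cases. Without unsynchronized replicate 2, which had the highest signal in 6 of the 7, 5 of 7 were below 0 with a median of -0.60, and the 2 that turned were chr16:19027477-19030036 at 0.36 and chr16:19196112-19200381 at 0.32. Without unsynchronized replicate 1 the median was -1.25.

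Among the Igl regions, chr16:19063268-19067315 had the highest mean signal. It was 125 and 254 in unsynchronized cells, on 7302 and 13603 reads, and 120 and 76.1 in early G1 cells, on 3924 and 2898 reads. Early G1 replicate 1 lay just under unsynchronized replicate 1, so the groups were separate by a small margin, and the log2 change was -0.89 with an SE of 0.46 (limma adjusted p = 0.37). As with the strongest Igh region, the edges were stable while the level was not: the start varied by 51 bp, the end by 49 bp and the length by 1.01 times. By signal it ranked 90 and 51 in unsynchronized cells and 295 and 590 in early G1.

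The longest Igl region, chr16:19232425-19241918, had signals of 92.2 and 88.1 in unsynchronized cells and 89.1 and 40.8 in early G1 cells. Early G1 replicate 1 thus lay between the unsynchronized libraries, and the lower mean came from early G1 replicate 2 alone. There the region was called as 2 pieces, of 69.2 over the first 4078 bp and 16.3 over the last 4724 bp, where the other 3 libraries had 1 region of 9395 to 9487 bp. The log2 change was -0.57 (SE 0.45, limma adjusted p = 0.55).

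The largest log2 change of the 18 members was at chr16:19024243-19027317. Its signals were 30.1 and 45.9 for unsynchronized cells against 26.8 and 7.58 in early G1 cells, with called lengths of 2762 to 3075 bp in all 4. The log2 change of -1.31 (SE 0.53, limma adjusted p = 0.29) did not pass, and it was -0.46 without early G1 replicate 2. Without early G1 replicate 1 it was -2.15 and passed (limma adjusted p = 0.030), in a fit where the spread came from the unsynchronized libraries alone. Next to it, chr16:19027477-19030036 had 9.42 and 46.9 against 12.6 and 12.2, where the unsynchronized replicates differed more than the groups.

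At chr16:19085954-19088096 the signals were 19.1 and 22.2 against 16.6 and 5.88, without overlap (log2 change -0.97, SE 0.51, limma adjusted p = 0.38). At chr16:19005592-19007561 they were 36.2 and 54.6 against 44.0 and 11.1, with overlap. In chr16:19196112-19200381 they were 37.2 and 85.0 against 48.7 and 44.9, also with overlap, while the called length was 3870 and 3614 bp for unsynchronized cells against 1402 and 2376 bp in early G1 cells.

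A further 4 of the 23 Igl regions (17.4%) were called in 3 libraries, close to the 16.2% of all merged regions. In each of the 4 the missing call was in early G1, a pattern that 9.74% of all merged regions had. Early G1 replicate 2 had none at chr16:19007966-19010993, chr16:19060360-19063249 and chr16:19243308-19246210, and early G1 replicate 1 had none at chr16:19083655-19085602. The strongest was chr16:19060360-19063249, which adjoins the region of highest signal, with 41.4 and 80.5 in unsynchronized cells and 38.8 in early G1 replicate 1. At chr16:19004338-19005473, signals of 4.33 and 5.05 on 72 and 64 reads were found in unsynchronized cells alone. No Igl region was called in both early G1 libraries and in neither unsynchronized library.

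**Figure D3:**
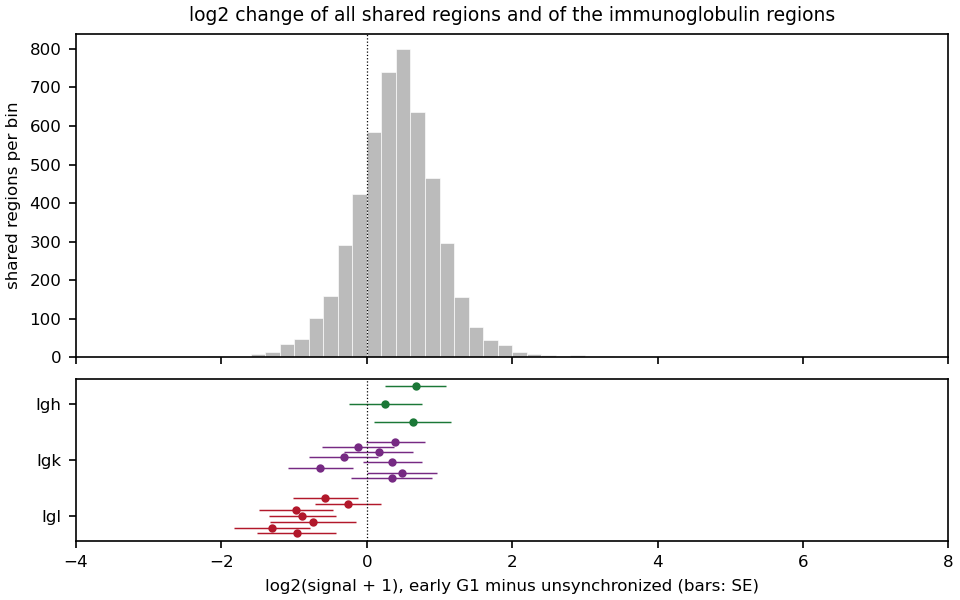
Upper panel: number of all 4972 shared regions (y axis) by log2 change of signal + 1, early G1 minus unsynchronized (x axis, bins of 0.2). Lower panel: the 18 immunoglobulin regions by locus with their SE as bars; the 7 Igl regions lie below 0, the 3 Igh regions above it, and Igk on both sides.

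Set side by side, the 3 loci had medians of 0.63 (Igh, 3 regions), 0.25 (Igk, 8 regions) and -0.89 (Igl, 7 regions), beside 0.41 for all shared regions. Of the 18 regions, 8 were above 0 and 10 below, where 78% of all shared regions were above. By limma's adjusted p 0 of 18 passed, where 0.342% of all shared regions did, 0.302% as higher and 0.0402% as lower in early G1. With no adjustment, 1 of 18 had a p under 0.05 and was lower, where 0.945% of all were, and 0 were higher. After division by the library median, 3 were above 0 and 15 below, where 48.0% of all were above, with medians of 0.20 (Igh), -0.19 (Igk) and -1.35 (Igl) beside -0.03 for all. As signal times length, 5 were above 0 and 13 below, where 73.4% of all were above. The difference between the loci was not tested.

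The whole window was also compared as a single value per library. The summed signal is each region's signal times its length in kb, added over the window. It moves with how much was called, so the called length is given with it. For shares of a library's summed signal, the library's total leaves out its region of largest summed signal. With 2 against 2 libraries the smallest possible p of the exact permutation test is 0.333, and 7 windows and parts were tested (6 for the summed signal, since the V part of Igh had no region in early G1 replicate 2).

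For Igh the summed signal was 863 and 1173 for unsynchronized cells against 1463 and 943 in early G1 cells, so the groups overlapped (log2 change 0.22, exact two-sided p = 0.667). Called lengths were 32.5 and 24.5 kb against 26.9 and 11.8 kb. The mean signal over the called length was 26.5 and 48.0 against 54.3 and 80.2, higher in both early G1 libraries. Over all regions of each library it was 17.3 and 26.2 against 31.1 and 34.5, also higher in both early G1 libraries. As a share of each library's summed signal, Igh held 0.236% and 0.255% against 0.267% and 0.185%, and the direction of its log2 change turned to -0.14.

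For Igk the summed signal was 1814 and 1934 against 1475 and 1368, at 1874 ± 84.8 and 1421 ± 75.6 (SD, n = 2), and the groups did not overlap (log2 change -0.40, exact two-sided p = 0.333, 0.50 adjusted over the windows). The called length was 37.5 and 30.9 kb against 27.6 and 18.5 kb. Mean signal over the called length overlapped between the groups, at 48.4 and 62.7 against 53.4 and 74.1. The share of the library's summed signal was 0.496% and 0.421% against 0.269% and 0.268%. Over all regions of each library this mean was 17.3 and 26.2 against 31.1 and 34.5. The lower Igk sum in early G1 thus went with a shorter called length and with overlapping mean signals. Whether the Igk mean rose less than that of all regions was not tested.

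For Igl the summed signal was 1938 and 2986 against 1768 and 883, and the groups did not overlap (log2 change -0.95, exact two-sided p = 0.333, 0.50 adjusted). Leaving out early G1 replicate 2 gave -0.44, and leaving out its partner gave -1.45. Called lengths of 37.2 and 42.6 kb compared with 33.4 and 24.8 kb. Mean signals over the called length were 52.1 and 70.2 against 53.0 and 35.5 and overlapped. The share of the library's summed signal was 0.530% and 0.650% against 0.323% and 0.173%.

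**Figure D4:**
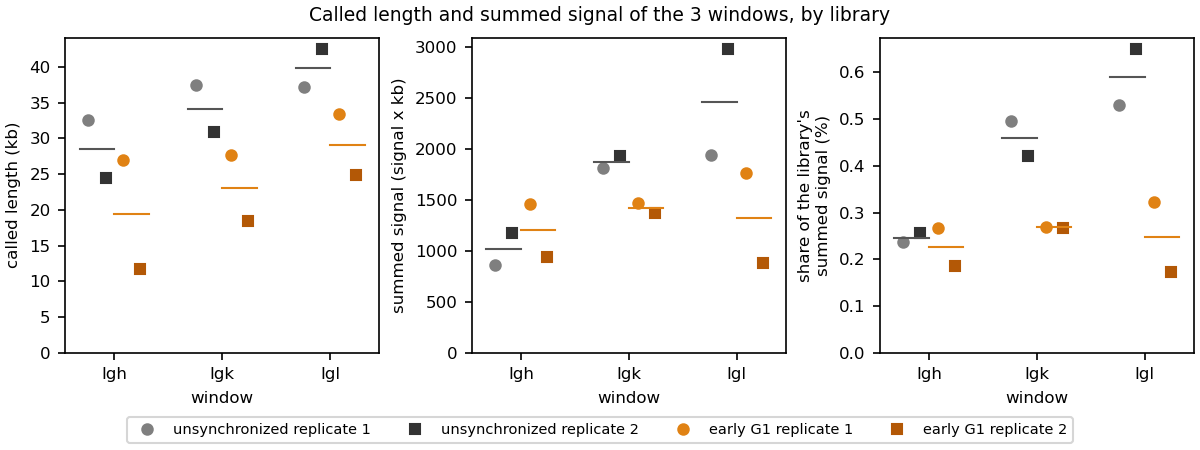
Called length (kb), summed signal (signal times kb) and share of the library's summed signal (%) of the 3 windows. The library's total for the share leaves out its region of largest summed signal. Points are libraries, lines are means of 2 libraries, and all y axes start at 0. For Igk and Igl both early G1 libraries lie below both unsynchronized libraries in each panel, and for Igh the groups overlap in each.

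Presence over all members followed the genome in part. Of the 73 regions, 18 (24.7%) were called in all 4 libraries, where 24.6% of all 20175 merged regions were, and 29 (39.7%) in a single library, where 39.9% of all were. These shares are at the background. In both unsynchronized libraries and neither early G1 library, 8 of 73 (11.0%) were called, against 4.98% of all merged regions, and 5 of these 8 lay in Igh. In both early G1 libraries and neither unsynchronized library it was 2 of 73 (2.74%), both in Igh, against 3.7% of all. Counted by bases, 26.8% of the 148 kb called in any library were called in all 4, compared with 16.4% of the called bases outside the windows. The loci differed in this, with 38.2% in Igl, 30.8% in Igk and 11.1% in Igh. Bases called in both unsynchronized libraries and neither early G1 library made up 17.7% in Igh, 12.3% in Igk and 5.83% in Igl, and 7.64% outside the windows. These shares are a description, without a test.

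In each library the members were longer than the typical region, with median lengths of 1770.5, 1260, 1916 and 1190 bp against 991, 884, 972 and 852 bp for all regions, with the unsynchronized libraries first. Their median signal was above that of all regions in unsynchronized cells, at 15.3 against 10.7 and 20.4 against 15.0. In early G1 replicate 1 it was 19.3 against 17.2, and in early G1 replicate 2 it was 13.7 against 20.3. The last was also the library with the fewest members. By summed signal, the main Igk region of unsynchronized replicate 1 ranked 6 of 12538.

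By the signals in the 4 libraries, the regions most like the strongest Igh region were chr11:3023694-3024141, chr16:84703815-84713383 and chr10:12641669-12642494. Their Euclidean distances on the log2(signal + 1) scale were 0.34, 0.37 and 0.37 over the 4 libraries. They were picked by these same signals, so a shared pattern follows from the choice and is no separate result. At chr16:84703815-84713383 and chr10:12641669-12642494 both early G1 signals lay above both unsynchronized signals. At chr11:3023694-3024141 the groups overlapped, with 170 in early G1 replicate 2 below 188 in unsynchronized replicate 2.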

How the data were processed

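GRO-seq was deposited by the authors as 1 list of regions per library, for 2 unsynchronized and 2 early G1 libraries grouped by their titles. Each region has a position and a signal that the authors called a geometric mean. Per the submitters' processing notes, BWA 0.7.12, HOMER and mm9 were used. Calling and scaling of the regions are not given in the sources used here. The square of signal times length was a whole multiple of a library constant for 100% of regions tested (multiples below 5000, tolerance 0.1), from which reads were recovered. Files use mm9 and the gene table GRCm38, so coordinates were not converted, and pathway gene lists were not made.

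Regions were merged in Python 3.11.15, counting positions from 1. Log2(signal + 1) of all 4972 regions called in all 4 libraries was fitted with limma 3.58.1 in R 4.3.3 (eBayes with trend, two-sided, Benjamini-Hochberg, threshold 0.05), tested on simulated data first. The log2 scale understates changes of low regions. Window values were compared by exact permutation.

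Members and lists were chosen with earlier results of these data known. Named are the shared regions of each window (at most 12), the 5 longest merged regions, up to 5 of the longest called in 1 group alone per direction, those past the threshold, and the 3 most like the strongest. Others named were chosen after their values were seen. Alternatives were the pseudocount (0.1), a filter at the 25th percentile, median scaling, merging within 1 kb, coverage of 50%, signal times length, no trend, missing signal as 0, a replicate block and leaving out each library.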

Additional observations from a re-analysis of the deposited data

How the results depend on the processing

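By limma, 0 of the 18 shared immunoglobulin regions passed the threshold in each setting run, except that 1 passed without early G1 replicate 1, so leaving out a library gave 0 to 1. At an unadjusted p under 0.05 there was 1 in the reported fit, 6 with median scaling, 4 of 10 with coverage of 50%, 10 of 44 (8 lower) with missing signal set to 0, 0 as signal times length, 0 to 3 without a library, 2 of 17 (1 lower) with merging within 1 kb, and 1 in the others. Over all 4972 shared regions the count past the threshold was 17, and it was 79 with coverage of 50% (2783 tested), 32 with the filter (3729 tested), 3 with merging within 1 kb, 2 with no trend, 1 as signal times length, 0 with median scaling, 0 with missing signal set to 0 (12119 tested, 1009 lower and 1230 higher unadjusted), 4 with the replicate block and 1 to 119 without a library. Unadjusted, median scaling gave 212 regions as higher and 285 as lower. The 6 members counted there were all lower, 5 of them in Igl. Coverage of 50% gave 507 of 2783 regions as higher and 21 as lower. The 4 members counted there were all lower and all in Igl. With the replicate block 0 of 18 passed, and deviations of same-numbered libraries correlated at r = 0.10. The labels give no shared source for a number, and with 2 pairs a shared batch was not tested.

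Window sums are log2 changes. The Igh sum of 0.22 turned to -0.14 as a share of the library's signal and -0.45 as unscaled reads, with a range of -0.093 to 0.54 when a library was left out. Its constant part turned to -0.084 and -0.39. The number of regions in the constant part (-3.5, early G1 minus unsynchronized) was 0.5 with signals above the 25th percentile, and in the remaining part (-1.5) it ran from -3.5 to 0.5 without 1 library. The log2 sum of the remaining part has no value, because early G1 replicate 2 had no region there. Changing 1 choice at a time, called length kept its direction in all 7 windows and parts, as did the sums of Igk, its parts and Igl. With the stricter signal and a library left out together, directions turned in places: called length was 2.47 kb higher in Igh and 4.39 kb higher in its constant part without early G1 replicate 2, and 0.399 kb higher in the V part of Igk without unsynchronized replicate 2, where the log2 sum was 0.61.

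Among single regions, 10 values under other settings changed sign and 140 did not, and without a library 13 changed sign and 58 kept sign and call. With median scaling these were chr12:114577762-114579402 (-0.18), chr6:68204516-68206367 (-0.072), chr6:70668834-70681337 (-0.11), chr6:70696758-70700108 (-0.27) and chr6:70742249-70742947 (-0.060). As signal times length they were chr6:68204516-68206367 (-0.25), chr6:70668834-70681337 (-0.41) and chr6:70696758-70700108 (-0.028), and with merging within 1 kb chr6:70664897-70668808 (0.16) and chr6:70700219-70704347 (0.013). Without 1 library, the log2 change ran from -0.29 to 0.79 at chr12:114577762-114579402, -1.84 to 0.36 at chr16:19027477-19030036, -0.85 to 0.32 at chr16:19196112-19200381 and -0.23 to 0.91 at chr6:68204516-68206367. It ran from -0.014 to 0.98 at chr6:69450166-69450642, -0.81 to 0.17 at chr6:70689801-70693868, -0.0022 to 0.33 at chr6:70696758-70700108 and -0.69 to 0.44 at chr6:70700219-70704347. Except where the alternative's own construction is the difference, the cause was not tested. Each group has 2 libraries, and early G1 has fewer inferred reads. The part of depth in its missing calls was not tested.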
